A study of Mus musculus with 8 samples.

Results

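The translation initiation factors are the proteins that bring ribosome, initiator tRNA and mRNA together before a protein is made. They were taken from the table of this ribosome profiling study by symbol: every gene whose symbol starts with Eif, without the eIF2 kinases (Eif2ak) and Eif4enif1, plus the partner genes Pabpc1 and Abce1. This rule found 47 of the 9307 genes in the table. They fell by role into 4 genes of the eIF1 group, 6 of the eIF2 group, 5 of eIF2B, 13 of eIF3, 10 of eIF4, 2 eIF4E-binding proteins, 5 of the eIF5 and eIF6 group, and the 2 partners. Eif1, Eif3j2, Eif4e1b, Eif4e3 and Eif4ebp3 are protein-coding genes that fit the rule and have no line in the table, so they were not analysed here.

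The cells were mouse embryonic fibroblasts (MEF), connective tissue cells grown from embryos, and every group carries SV40 T antigen, a viral oncoprotein used to immortalise cells. They were stably transduced with pBabe vectors that were empty (EV) or carried wild-type METTL1 and WDR4 (OE), the enzyme and the partner subunit of a complex that methylates a guanosine in some tRNAs. From each kind of cell, input RNA and ribosome-protected fragments (RPF, or footprints) were sequenced after cycloheximide treatment, in 4 groups of 2 libraries: input and RPF of EV cells, and input and RPF of OE cells. The study asks how METTL1 and WDR4 change the set of translated mRNAs. The labels speak of stable clones, and leave unsaid if the 2 libraries of a group were grown separately. A p-value here weighs a difference only against the spread between such libraries, which may be technical, and a difference between clones cannot be told apart from an effect of METTL1 and WDR4. In bulk RNA, fewer cells with a transcript and less transcript per cell cannot be told apart either.

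Initiation begins when eIF2, loaded with GTP and the initiator tRNA, joins the small ribosomal subunit together with eIF1, eIF1A, eIF5 and the large scaffold eIF3. The cap-binding protein eIF4E, the scaffold eIF4G and the helicase eIF4A recruit this assembly to the 5′ end of an mRNA, and eIF5B then joins the large subunit. After each round eIF2 is left with GDP, which eIF2B exchanges for GTP, and phosphorylated eIF2 blocks that exchange during stress.

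Several of these factors have close paralogs or many processed pseudogenes, so the sequence decides which reads can be given to a gene. The windows below show this for the eIF4A helicases and for the gamma subunit of eIF2, which mice carry on both sex chromosomes. Each is a 28-base stretch of coding sequence from the GENCODE transcripts of mm10, about as long as a footprint, in which capitals mark the bases that differ between the paralogs.
Eif4a1: aagcCcagtcTggGactggGaaAacagc
Eif4a2: aagcTcagtcAggTactggCaaGacagc
Eif2s3x: atggcTggGggTgaGgGTggAgtGactc
Eif2s3y: atggcGggCggAgaAgCCggTgtCactc
The Eif4a1 window (coding bases 224 to 251; gene on chromosome 11) occurs word for word in 6 other annotated genes, pseudogenes such as Eif4a-ps4 among them. The Eif4a2 window (coding bases 230 to 257; gene on chromosome 16) occurs in 0 others. The coding sequences of Eif4a1 and Eif4a2 are identical at 77.6% of aligned positions, and those of Eif2s3x and Eif2s3y at 86.3%. Over the whole coding sequence, 0.588% of the 28-base words of Eif4a1 occur in no other annotated gene, and 59.9% of those of Eif4a2. That share was 4.97% for Eif2s3x, whose words recur in the pseudogene Gm2223 for 95.03% of its coding sequence, 14.6% for Eif2s2, 19.6% for Eif4e and 0% for Eif3j1. In all, 13 members had less than 60% unique words and 26 had at least 90%. The values of the first 13 are uncertain wherever the authors' counting could split such reads.

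Values below are size-factor-normalized reads. One read counts as 1.27 to 1.61 in an input library and as 0.549 to 0.898 in an RPF library. Reads in the listed genes numbered 294367 to 371520 per input library and 526699 to 864147 per RPF library, with a median gene at 15 to 19 and 23 to 38 reads. Fibroblast markers were abundant: 9 of 11 listed had a summed input value of 5036 to 5217 in EV and 5809 to 6014 in OE. In RPF their sum was 9669 to 9704 in EV and 10260 to 10970 in OE, so OE was higher in both. Between OE and EV these 9 gave 2 limma calls over mRNA, RPF and the difference of the 2. Over all genes 1.5%, 0.956% and 0% passed. The part of the fibroblast markers in the results was not tested. Of the 4 leukocyte, 3 endothelial and 3 muscle markers, 0 were in the table. The neural markers in the table (2 of 3), Tubb3 and Map2, summed to 16.6 to 23.1 in EV input and 29.3 to 32.1 in OE input, and Krt18, 1 of 5 epithelial markers, lay at 6.37 to 6.42 and at 7.99 to 8.03. In RPF the neural sum was 24.1 to 27.7 in EV and 40.1 to 47.6 in OE, and Krt18 was 3.76 to 6.59 and 12.6 to 18.9, and the part of either in the results was not tested. Mettl1 and Wdr4 did not pass the test for input mRNA, each with a log2 fold change of 0.58 (limma, adjusted p = 0.482 and 0.454). The labels do not give the species of the vector sequences, so whether these reads count the transgenes is not known.

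At the level of mRNA, Eif4a2 was the 1 initiation factor that passed the test between OE and EV cells, and it was lower in OE. Of the 47 members, 1 passed an adjusted p of 0.05 with limma, where 1.5% of all genes did (0.494% as lower). At an unadjusted p under 0.05 there were 7, beside 13.4% of genes. Eif4a2, a helicase that unwinds the 5′ leader as part of the cap-binding complex (ENSMUSG00000022884.14, plus strand of chromosome 16 from 23107444 to 23114136 in build mm10), showed input reads of 201.5 and 222.9 (EV) against 126.9 and 135.8 (OE). Both OE libraries lay well below both EV libraries. The mRNA fell by 0.69 on the log2 scale (SE 0.15, limma adjusted p = 0.0182). Its call was lost with DESeq2 (adjusted p = 0.27), without the first EV input library (adjusted p = 0.0704), without the second (0.18) and without the first OE input library (0.106), at fold changes of -0.61 to -0.76. Its exons carry several small RNA genes and share 13.3% of their bases with other genes.

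The paralog Eif4a1, which encodes the same helicase activity, had a value of the other sign that did not pass. Its input reads were 229.8 and 242.0 (EV) against 321.2 and 288.9 (OE), a log2 difference of 0.37 (SE 0.26, adjusted p = 0.588). The OE libraries were both higher. Eif4a1 over Eif4a2 reads came to 1.14 and 1.09 in the EV input libraries and to 2.53 and 2.13 in the OE input libraries. The input ratio did not overlap between groups, but this follows from the opposite signs of the 2 genes and adds no support. In RPF the ratio was 0.0755 and 0.0761 (EV) against 0.0727 and 0.148 (OE), which overlapped. There Eif4a1 rested on 15 (EV) and 20 (OE) pooled reads. The size of the ratio is not scaled for length. The coding sequences of Eif4a1 and Eif4a2 are 1218 and 1224 bases long. The annotated transcripts used, chosen for the longest coding sequence, have 1774 and 1227 bases. That of Eif4a2 holds almost nothing beyond its coding sequence, so these lengths need not be those of the mRNAs in the cells.

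**Figure D1:**
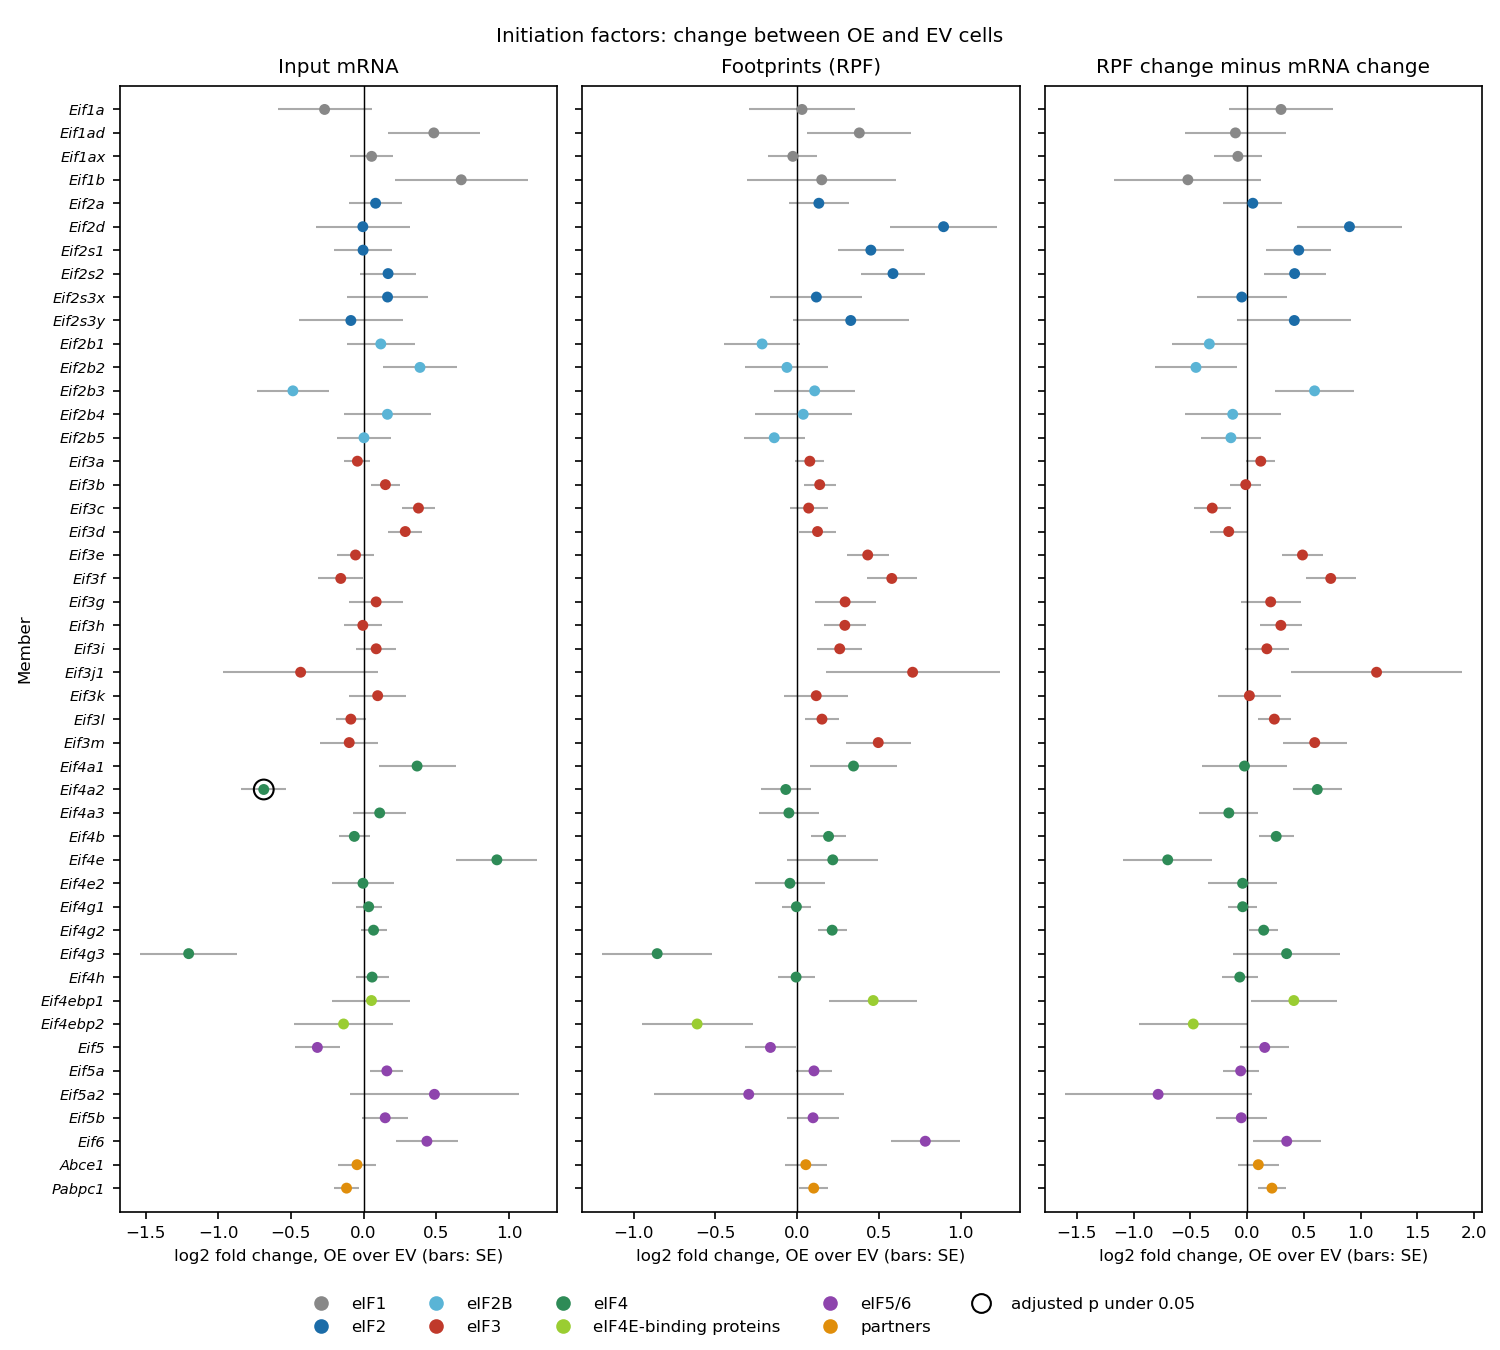
Log2 fold change, OE over EV, of each of the 47 initiation factors for input mRNA (left), RPF (middle) and for RPF minus mRNA (right, TE), coloured by role, with bars of 1 SE from limma. The 1 circled point is the mRNA of Eif4a2 at -0.69, and the 13 eIF3 points in the middle panel all lie right of 0.

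Among the other members of the cap-binding group, Eif4g3, Eif4e and Eif3c of the neighbouring eIF3 complex came closest to the threshold. Eif4g3, the least abundant of the eIF4G scaffolds, had input values of 38.5 and 35.7 (EV) against 11.2 and 21.3 (OE). Both OE libraries were lower, at a log2 difference of -1.20 (SE 0.34, adjusted p = 0.0671), and the value passed with limma without the second OE input library (-1.64, adjusted p = 0.0288) and with a pseudocount of 5 (0.0481). Leaving out OE input library 1 gave -0.77 (limma adjusted p = 0.359), and leaving out EV input library 1 or 2 gave adjusted p-values of 0.25 and 0.205. Eif4e, which binds the cap, had input values of 37.2 and 29.3 (EV) against 62.6 and 63.9 (OE). The OE libraries were both higher, at a log2 difference of 0.92 (SE 0.28, adjusted p = 0.094). Eif3c, a core subunit of eIF3, had 178.4 and 217.8 (EV) against 240.9 and 272.9 (OE), a log2 difference of 0.38 (SE 0.12, adjusted p = 0.0966).

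The largest differences outside eIF4 rested on few reads. Eif1b, an eIF1 homolog, had input values of 2.57 and 6.37 (EV) against 6.42 and 7.99 (OE) (log2 difference 0.67, SE 0.46, adjusted p = 0.559). Its pooled input reads were 7 in EV and 10 in OE, which puts OE over EV at 1.63 (exact 95% interval 0.559 to 5.03, counting error only). Eif5a2, the scarce paralog of the elongation and initiation factor eIF5A, had 1.28 and 6.37 (EV) against 8.03 and 2.66 (OE) (0.49, SE 0.58, adjusted p = 0.777), so its groups overlapped.

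Within eIF2B, Eif2b3, its gamma subunit, had input values of 29.5 and 30.6 (EV) against 17.7 and 25.3 (OE), a log2 difference of -0.49 (SE 0.25, adjusted p = 0.399). Both OE libraries were lower, and the value was -0.24 without the first OE input library and -0.73 without the second. The median mRNA difference was 0.04 in the eIF2 group, 0.12 in eIF2B, -0.01 in eIF3 and 0.05 in eIF4, beside 0.00 over all genes. Both OE input libraries lay above both EV input libraries for 12 members and below them for 9 of 47, where 21.2% and 19.4% of all genes did so.

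**Figure D2:**
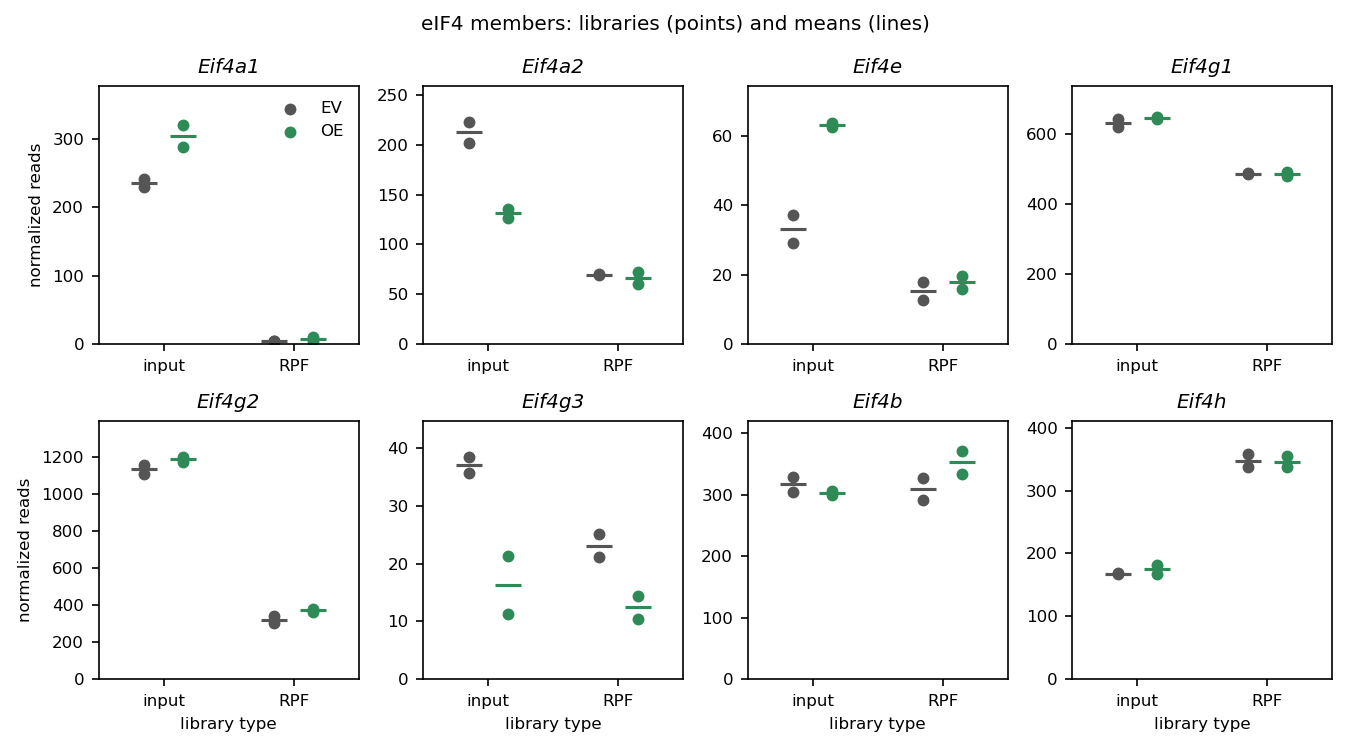
Normalized reads of 8 eIF4 genes in each input and RPF library of EV (grey) and OE (green) cells, with each point a library, each line the mean of 2, and axes that start at 0. Input reads of Eif4a2 sit at 201.5 and 222.9 (EV) against 126.9 and 135.8 (OE), while its RPF reads overlap between the groups.

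The footprint libraries showed a small difference in 1 direction across eIF3. All 13 eIF3 subunits had a log2 RPF difference above 0 (0.07 to 0.71, median 0.26), where 49.8% of all genes did and the median was -0.002. For 12 of the 13, each OE RPF value exceeded each EV one, against 21.9% of all genes, with Eif3a as the exception. No subunit passed on its own with limma. Summed over the 13 subunits, the RPF value was 3151 and 3124 (EV) against 3597 and 3507 (OE), and the input value was 2477 and 2552 (EV) against 2654 and 2588 (OE). The difference above 0 held for every subunit tested under each of 18 alternatives, with a median between 0.18 and 0.27. Not all of these put it to a test. With no filter, the RPF libraries alone, the replicate block or 1 input library left out, the median stayed at 0.26. The same settings also left the eIF2 and eIF4 RPF medians unchanged.

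Eif3f, a subunit with an MPN domain (chromosome 7, 108934417 to 108942951, plus strand; 98.8% of coding words unique), showed RPF values of 98.9 and 87.3 (EV) against 137.7 and 141.0 (OE). Both OE libraries were well above both EV libraries, at a log2 difference of 0.58 (SE 0.15, limma adjusted p = 0.071). Its input values of 98.8 and 122.3 (EV) against 101.2 and 95.9 (OE) overlapped. Eif3f passed with edgeR on the recovered reads (adjusted p = 0.00937) and not with DESeq2 (0.266).

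Eif3e, a PCI-domain subunit (chromosome 15, 43250058 to 43282719, minus strand), showed RPF values of 131.2 and 133.3 (EV) against 188.2 and 169.7 (OE). The groups did not overlap (log2 difference 0.43, SE 0.13, limma adjusted p = 0.122; edgeR adjusted p = 0.0381; DESeq2 adjusted p = 0.382). Pseudogene copies leave 49.2% of its coding words unique. Eif3m, another PCI-domain subunit, had 57.4 and 58.7 (EV) against 82.9 and 81.7 (OE), a log2 difference of 0.50 (SE 0.20, adjusted p = 0.333). Here too the groups were apart, with 35.1% of coding words unique.

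**Figure D3:**
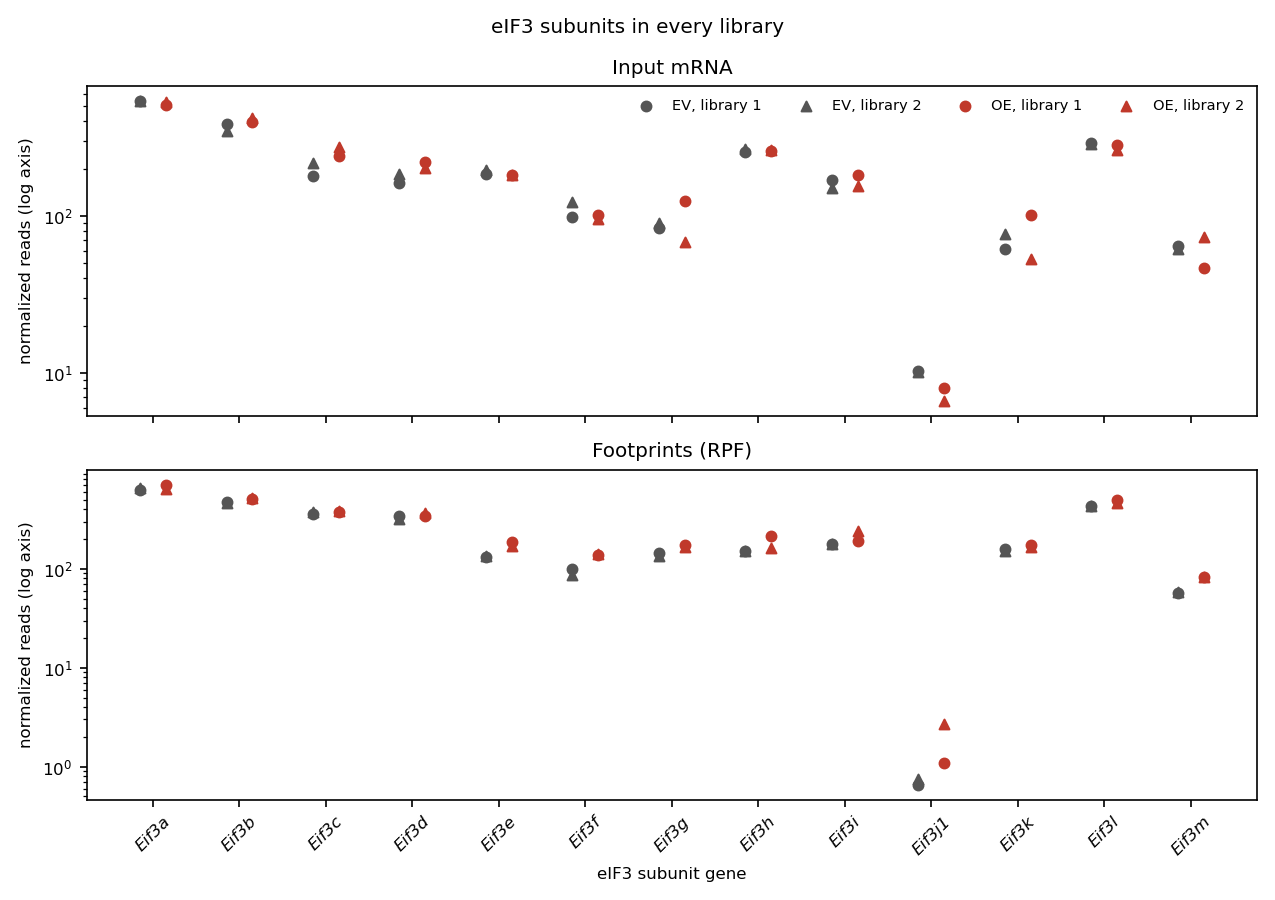
Normalized reads (log axis) of the 13 eIF3 subunits in every input library (top) and RPF library (bottom), with EV in grey and OE in red, and circles and triangles for libraries 1 and 2. In the lower panel the red points lie above the grey ones for 12 subunits, while Eif3j1 lies far below the rest, at 0.659 to 2.69 normalized RPF reads.

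The subunits of the structural core of eIF3, the octamer of PCI and MPN proteins (Eif3a, c, e, f, h, k, l and m), had a median RPF difference of 0.22, and 7 of 8 were higher without overlap, beside 21.9% of all genes. The other 5 (Eif3b, d, g, i and j1) had a median of 0.26, and 5 of 5 were higher without overlap, beside the same 21.9%. Eif3a, the largest subunit, was the one with overlap, at 631.0 and 650.5 (EV) against 705.2 and 648.3 (OE). Eif3h, an MPN subunit, had 151.6 and 149.8 (EV) against 212.4 and 160.7 (OE) (0.29, SE 0.13, adjusted p = 0.404). Its OE libraries were unequal, and the first carried most of the difference. Eif3j1, a loosely bound subunit that helps the complex onto the small ribosomal subunit, had the highest fold change of the group (0.71, SE 0.53, adjusted p = 0.721) on pooled RPF reads of 2 (EV) and 5 (OE), which puts OE over EV at 2.42 (exact 95% interval 0.397 to 25.4). A further limit is that 43.3% of the exon bases of Eif3d overlap an antisense gene, whose reads can be told apart only if the counting used strand.

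The eIF2 group had RPF differences above 0 for 6 of 6 members (median 0.39), where 49.8% of all genes lay above 0, and 4 of 6 were higher without overlap, where 21.9% of all genes were. Summed over the 6, RPF was 226.8 and 227.4 (EV) against 330.9 and 257.7 (OE), so the first OE library carried most of the rise. Without it the median was 0.29, with 5 of 6 above 0. Eif2s3y was among the 4 by a small margin, at 15.2 and 15.1 (EV) against 24.2 and 15.3 (OE). Eif2s2, the beta subunit of eIF2, showed RPF values of 37.6 and 36.1 (EV) against 60.9 and 51.2 (OE), with all OE values higher (log2 difference 0.59, SE 0.19, limma adjusted p = 0.184). Eif2s1, the alpha subunit whose phosphorylation marks the stress response, had 53.4 and 58.7 (EV) against 86.7 and 68.2 (OE) (0.45, SE 0.20, adjusted p = 0.41), again without overlap. Eif2d, a separate protein that can deliver tRNA to the ribosome and act in recycling, had 9.23 and 14.3 (EV) against 23.1 and 21.6 (OE) (0.90, SE 0.33, adjusted p = 0.25). The number of eIF2 members above 0 was 5 or 6 under the alternatives, with a median of 0.29 to 0.63. The input values of all 6 overlapped between groups, as did the RPF values of Eif2a and Eif2s3x. Over all genes, 21.2% were higher and 19.4% lower in input without overlap.

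eIF2B, the exchange factor for eIF2, did not share this direction in its values. Its 5 subunits had RPF differences of -0.21 to 0.11 with a median of -0.06, and 2 of them, Eif2b1 and Eif2b5, had both OE libraries below both EV libraries, where 22.2% of all genes did. The summed RPF value of eIF2B was 258.4 and 255.2 (EV) against 228.8 and 265.8 (OE), so the groups overlapped. The 10 eIF4 members had a median RPF difference of -0.01, with 4 above 0. That median took either sign under the alternatives (-0.04 to 0.10). RPF differences also went with shared sequence: the 13 members under 60% unique had a median of 0.29, with 11 above 0, and the 26 with at least 90% had a median of 0.10, with 16 above 0. The part of shared sequence in the eIF2 and eIF3 values was not tested. The difference between these groups of genes was not tested either, since genes of a group are not replicates of a condition.

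Within eIF4, the footprints of Eif4g3 followed its mRNA in value, with 25.1 and 21.1 (EV) against 10.4 and 14.4 (OE) (log2 difference -0.86, SE 0.34, adjusted p = 0.314). Both OE libraries were lower in RPF as in input. The main scaffold Eif4g1 had 488.5 and 486.3 (EV) against 491.7 and 480.4 (OE) (log2 difference -0.004). Eif4a2 showed RPF values of 69.9 and 69.3 (EV) against 60.4 and 72.7 (OE), which overlapped although its mRNA fell. Eif4g2, an eIF4G relative that lacks the eIF4E binding site, had 338.9 and 302.6 (EV) against 381.9 and 361.9 (OE) (0.21, SE 0.09, adjusted p = 0.357).

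The eIF4E-binding proteins, which hold eIF4E away from eIF4G, differed in sign. Eif4ebp1 showed RPF values of 31.7 and 26.4 (EV) against 38.4 and 42.2 (OE) (0.47, SE 0.27, adjusted p = 0.589). Eif4ebp2 had 17.1 and 21.8 (EV) against 12.1 and 12.6 (OE) (-0.61, SE 0.34, adjusted p = 0.571). For both genes the groups did not overlap, and neither passed. Over all genes, 21.9% were higher and 22.2% lower in RPF without overlap. The ratio of Eif4ebp1 to Eif4ebp2 footprints was 1.85 and 1.21 (EV) against 3.18 and 3.36 (OE). That gap follows from the opposite signs of the 2 genes and adds no support. In input the ratio was 1.21 and 1.69 (EV) against 1.90 and 1.43 (OE), which overlapped.

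Eif6, which binds the large ribosomal subunit and keeps it from joining too early (chromosome 2, 155819832 to 155826925, minus strand), showed RPF values of 128.6 and 137.0 (EV) against 332.6 and 158.0 (OE). Both OE libraries were higher, but the first stood far above the second. The log2 difference was 0.78 (SE 0.21, limma adjusted p = 0.0759; edgeR adjusted p = 1.32e-04; DESeq2 adjusted p = 0.515). It was 1.32 without the second OE RPF library and 0.25 without the first (adjusted p = 0.825), so its size rested on the first. Its input values were 62.9 and 53.5 (EV) against 70.7 and 87.9 (OE) (0.44, SE 0.21, adjusted p = 0.372). The 2 OE RPF libraries also differed from each other more than other pairs did, with a chi-square per degree of freedom of 1.73 over all genes against 1.07 to 1.20 in the other groups.

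Of all 47 members, 0 passed for RPF with limma, where 0.956% of genes did. At an unadjusted p under 0.05 there were 10 members, 9 of them higher, beside 10.2% of genes (5.47% as higher). Calls numbered 3 with edgeR (Eif3e, Eif3f and Eif6, where 3.23% of genes passed), 3 with limma voom (the same genes, where 3.43% of all genes passed) and 0 with DESeq2. In 22 members each OE RPF value exceeded each EV one, where 21.9% of all genes did so, and in 5 each was lower, where 22.2% did.

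A short pyrimidine run at the transcript start, which opens with C, is known as the 5′ terminal oligopyrimidine motif of ribosomal protein and some translation factor mRNAs, through which mTORC1 and LARP1 set their translation. The bases around the starts of 4 eIF3 and eIF2 subunits that carry such a run are shown with those of 3 members that do not (10 before and 20 after the RefSeq start, build GRCm38.p6, gene strand). Capitals mark a run of at least 5 C or T bases, counted from a C no more than 3 bases from the start. The bases before that C were not checked. In Eif3f, Eif2s3x and Eif3l they are C or T too, so the marked run is part of a longer stretch there.
Eif3f (chr7:108934405-108934434, plus strand): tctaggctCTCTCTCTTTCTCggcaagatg
Eif2s3x (chrX:94212632-94212661, minus strand): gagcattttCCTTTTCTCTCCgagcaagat
Eif2s3y (chrY:1010585-1010614, plus strand): ggccacagccaCTTCCTTCTTTCgtgagca
Eif3l (chr15:79075213-79075242, plus strand): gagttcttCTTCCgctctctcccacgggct
Eif2s2 (chr2:154892887-154892916, minus strand): aaggttggctttactgtacgcctgcgcttt
Eif3m (chr2:105017008-105017037, minus strand): cggtcggcgtgtttctggatcggagcgtct
Eif4a2 (chr16:23107458-23107487, plus strand): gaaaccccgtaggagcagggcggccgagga
The run was present in 8 of the 38 members with a promoter entry (21.1%): Eif1ad, Eif2b5, Eif2s3x, Eif2s3y, Eif3b, Eif3f, Eif3l and Eif4g1. By role that is 3 of 10 in eIF3, 2 of 6 in the eIF2 group, 1 of 4 in eIF2B and 1 of 9 in eIF4. Eif2d, Eif2s1, Eif2s2 and Eif3m have an entry and do not carry it. The 9 members without an entry are Eif1a, Eif2b3, Eif3e, Eif3h, Eif3i, Eif4ebp1, Eif4g2, Eif6 and Pabpc1. Their starts were not looked at, so these shares leave out eIF3 subunits with higher RPF values such as Eif3e and Eif3h. It was present in 14.9% of 7425 genes of the table with an entry and in 11.5% of all 32851 RefSeq promoters. RPF differences of these 8 ran from -0.14 (Eif2b5) to 0.58 (Eif3f), and 0 of them passed with limma. A match is a description of the letters in this window, and the motif was chosen for display after the RPF values were seen.

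Translational efficiency (TE) was taken as the RPF change minus the mRNA change, from the same 8 libraries. Of the 47 members 0 passed with limma, as did 0% of all genes, and 0 members passed with edgeR, limma voom or DESeq2. At an unadjusted p under 0.05 there were 4 members, all higher, beside 5.46% of genes (3% as higher). They were Eif3f (0.74, SE 0.22), Eif4a2 (0.62, SE 0.22), Eif3m (0.60, SE 0.28) and Eif3e (0.49, SE 0.18), with limma adjusted p-values of 0.823 to 0.899. For Eif4a2 the difference came with fewer input reads at overlapping RPF, and for the 3 eIF3 subunits with higher RPF values at overlapping or lower input values. In the authors' deposited table, Eif3f was the 1 member with an unadjusted p under 0.05 (log2 fold change of TE 0.75, p = 0.0212). The share of all genes with such a p there is not given here. These deposited values are those of the DESeq2 fit of TE (fold changes within 2.18e-05), so they are not a separate test.

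By size, the highest TE differences were those of Eif3j1 (1.14, SE 0.75, adjusted p = 0.916), Eif2d (0.90, SE 0.46, adjusted p = 0.915) and Eif3f. The lowest were those of Eif5a2 (-0.78, SE 0.82, adjusted p = 0.967), Eif4e (-0.70, SE 0.39, adjusted p = 0.916) and Eif1b (-0.52, SE 0.65, adjusted p = 0.97), all from limma. Eif4e showed RPF values of 17.8 and 12.8 (EV) against 15.9 and 19.8 (OE), so its footprints overlapped while its input values did not. The median TE difference was 0.42 in the eIF2 group, -0.14 in eIF2B, 0.21 in eIF3 and -0.03 in eIF4, beside -0.01 over all genes. Under the alternatives these medians ran from 0.20 to 0.58 in eIF2, -0.39 to -0.04 in eIF2B and 0.16 to 0.29 in eIF3, and the eIF4 median took either sign (-0.06 to 0.12).

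Footprints relative to input within the EV cells ranked the factors far more widely than OE and EV differed. Of the 47 members, 30 passed with limma, 17 with more and 13 with fewer footprints than input reads, where 37.7% of all genes passed (18.5% with more and 19.1% with fewer). The scale is relative, because the size factors set both kinds of library to a common middle. It is not scaled for length either, and input reads can also come from untranslated parts of a transcript. Eif1b (1.5), Eif6 (1.18), Eif3k (1.17) and Eif4h (1.05) were highest on the log2 scale, and Eif4a1 (-5.24), Pabpc1 (-3.06), Eif3j1 (-2.72) and Eif4g2 (-1.82) were lowest.

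In the eIF4 group the extremes were Eif4h, a cofactor of eIF4A, and Eif4a1 itself. Eif4h had 168.2 and 166.8 reads in EV input and 337.6 and 357.6 in EV RPF. Eif4a1 had 229.8 and 242.0 in EV input and 5.27 and 5.27 in EV RPF, where it rested on 15 pooled reads. In OE cells Eif4a1 gave the same picture, with 321.2 and 288.9 in input and 4.39 and 10.8 in RPF.

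In eIF3 the extremes were Eif3k, a small subunit of the octamer, with 61.6 and 76.4 in EV input and 158.9 and 152.8 in EV RPF, and Eif3j1, with 10.3 and 10.2 in EV input and 0.659 and 0.753 in EV RPF. In the eIF2 group Eif2s3x, the X-linked gamma subunit, had 50.1 and 47.1 in input and 12.5 and 20.3 in RPF (-1.55, adjusted p = 6.67e-05). Eif2a, an alternative carrier of initiator tRNA, was the highest of that group, with 88.6 and 82.8 in input and 98.9 and 82.8 in RPF (0.08, adjusted p = 0.775). Its groups overlapped. In eIF2B the values ran from Eif2b5, the catalytic epsilon subunit (65.5 and 66.2 in input, 66.6 and 70.0 in RPF, 0.05), to Eif2b2, its beta subunit (30.8 and 22.9 in input, 58.0 and 42.2 in RPF, 0.87, limma adjusted p = 0.00737).

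In TE the 13 members under 60% unique had a median difference of 0.30, with 8 above 0, and the 26 with at least 90% had -0.04, with 15 below 0. The part of shared sequence in the TE values was not tested.

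Low footprint values went together with sequence that is shared with other genes. Across the 47 members, the log2 of RPF over input in EV cells and the percentage of unique coding words had Pearson's r = 0.66 and Spearman's rho = 0.47, a description over genes that share libraries and, in part, sequence. The 13 members under 60% unique had a median of -0.98, and 11 of them lay below 0. The 26 members with at least 90% had a median of 0.37, and 20 of them lay above 0. Eif4g2, at -1.82 with 99.6% of its coding words unique, and Eif2d, at -1.01, are members with low values outside that pattern. These values are not scaled for length. Mean EV input per transcript kilobase and EV RPF per coding kilobase were 142 and 118 for Eif4g2, and 7.01 and 6.68 for Eif2d. The input values depend on the annotated transcript used, of 7995 bases for Eif4g2 (2718 of them coding) and 3465 for Eif2d. A shorter mRNA in the cells would give a higher input density. The part of length in the pattern was not tested. Eif2s3y, with nearly all words unique, had 14.1 and 16.6 in input and 15.2 and 15.1 in RPF. Eif2s3x over Eif2s3y reads came to 3.55 and 2.85 in EV input and to 0.826 and 1.35 in EV RPF. The coding lengths are equal, but the annotated transcripts used are 3647 (Eif2s3x) and 1836 (Eif2s3y) bases long, so the input ratio may also hold transcript length. Per kilobase of transcript, EV input was 13.7 and 12.9 for Eif2s3x and 7.69 and 9.02 for Eif2s3y. How reads with several matches were counted is not given in the sources used here, and the part of such reads in these values was not tested.

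**Figure D4:**
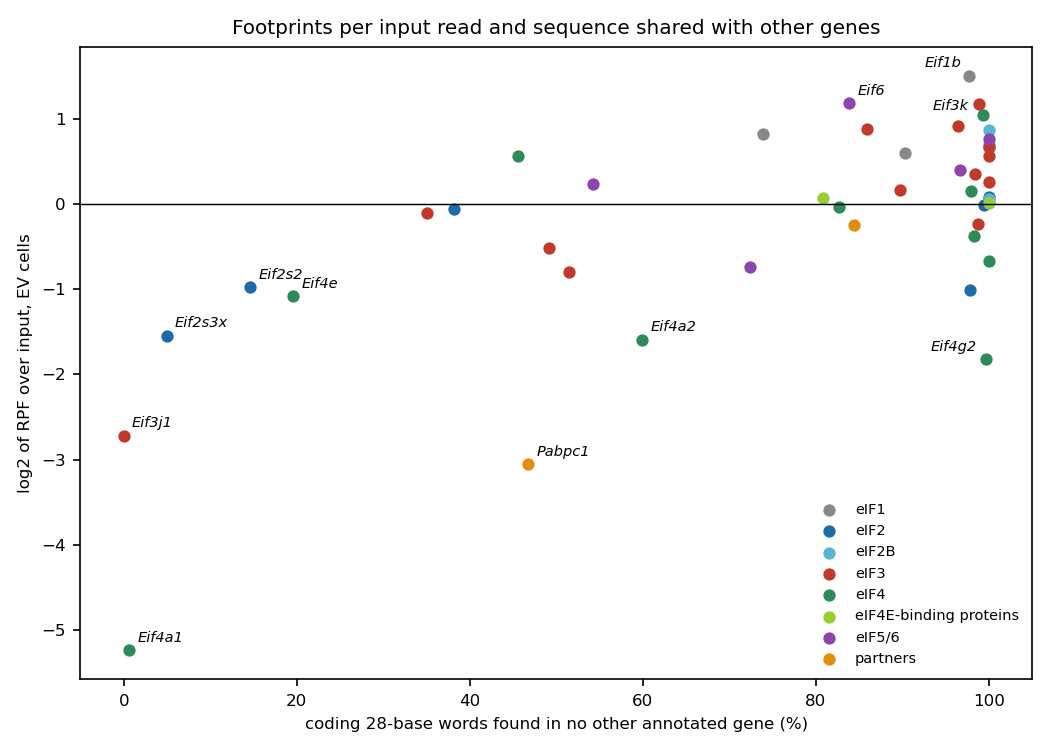
Log2 of RPF over input in EV cells against the percentage of 28-base coding words found in no other annotated gene, 1 point for each of the 47 initiation factors, coloured by role. Members under 60% have a median of -0.98 and those of at least 90% a median of 0.37, with Eif4a1 at -5.24 and 0.588% unique.

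Subunits of a complex that are needed in equal numbers can be compared by footprints per kilobase of coding sequence, a level. In EV cells the 5 eIF2B subunits ran from 21 (Eif2b4) to 58.2 (Eif2b1) normalized RPF reads per kilobase, a 2.77-fold range. Without Eif3j1, the 12 other eIF3 subunits ran from 51.7 (Eif3m) to 254 (Eif3l), a 4.92-fold range with a median of 152. Eif2s1, Eif2s2 and Eif2s3x ran from 11.6 (Eif2s3x) to 59.3 (Eif2s1), a 5.11-fold range.

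Counted per kilobase of unique coding sequence, the same EV values ran from 160 (Eif2s1) to 261 (Eif2s2) in eIF2, a 1.63-fold range. In eIF3 they ran from 89.3 (Eif3f) to 284 (Eif3h), a 3.19-fold range, and in eIF2B from 21.4 to 60, a 2.8-fold range. The range within eIF2 and eIF3 was thus narrower on this scale, and that of eIF2B, whose subunits have few copies, was nearly the same. This scaling was added after the values were seen, and it holds only if reads with several matches were left out. For Eif2s3x it rests on 0.07 kilobase of unique sequence, and for Eif3j1 it cannot be computed. On either scale all 5 eIF2B subunits lay below the median eIF3 subunit. In OE cells the eIF3 median per coding kilobase was 177, the eIF2B median 39.6 beside 36.5 in EV, and the range within eIF3 was 3.86-fold.

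**Figure D5:**
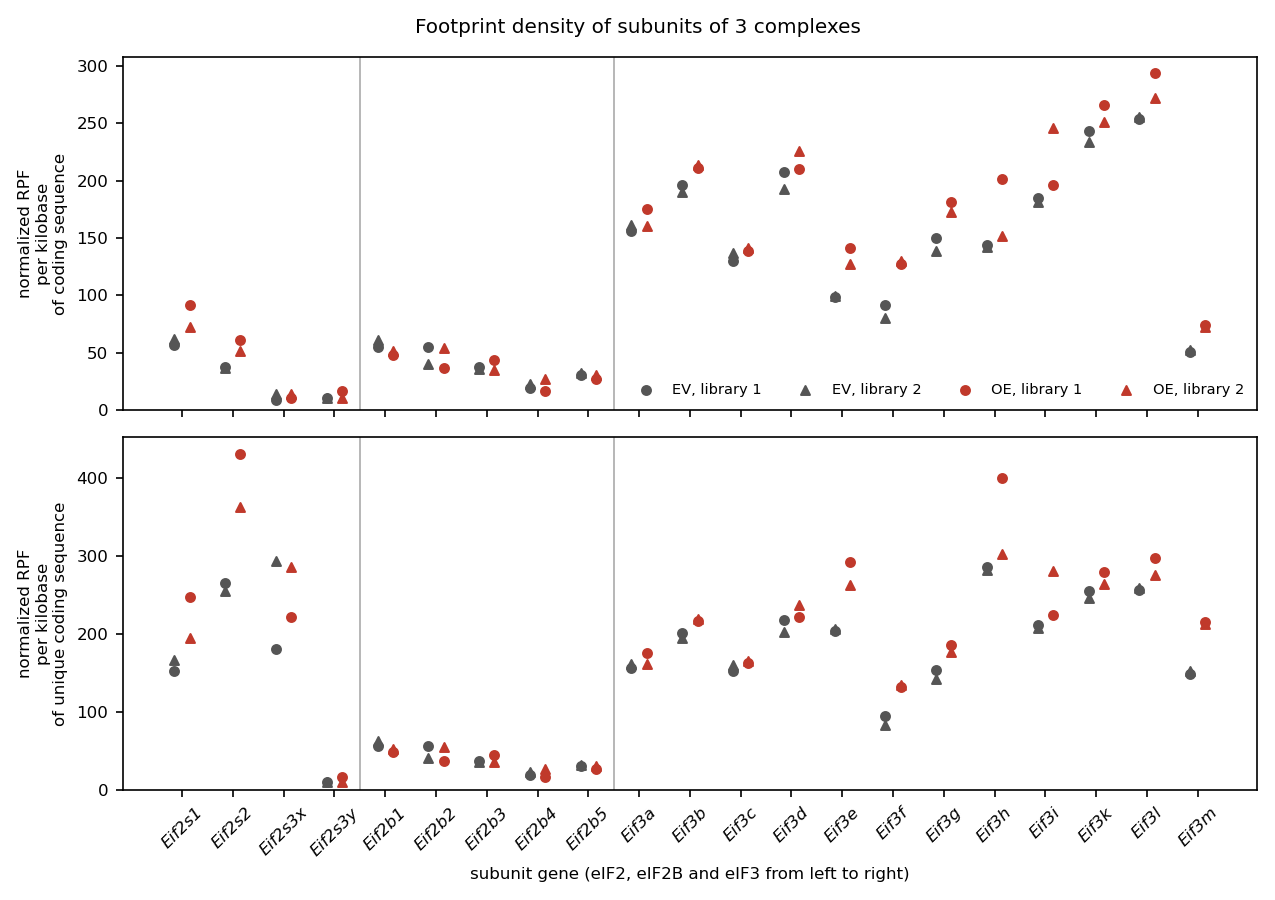
Normalized RPF reads per kilobase of coding sequence (top) and per kilobase of coding sequence unique to the gene (bottom) for subunits of eIF2, eIF2B and eIF3, with EV in grey, OE in red, and circles and triangles for libraries 1 and 2. In EV cells the range among Eif2s1, Eif2s2 and Eif2s3x is 5.11-fold in the upper panel and 1.63-fold in the lower.

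The other members showed no passed difference in OE. In the eIF1 group, Eif1ax, the X-linked eIF1A that opens the small subunit for scanning, showed RPF values of 146.4 and 128.0 (EV) against 127.3 and 141.9 (OE). Eif5, which triggers GTP hydrolysis by eIF2, had input values of 174.6 and 142.6 (EV) against 123.6 and 129.1 (OE), all lower (-0.32, SE 0.15, limma adjusted p = 0.364). Eif5b, the GTPase of subunit joining, showed RPF values of 108.8 and 99.4 (EV) against 108.7 and 114.0 (OE), which overlapped. Pabpc1, the poly(A)-binding protein that ties the mRNA tail to eIF4G, had the most input reads of all members, at 1634 and 1654 (EV) against 1482 and 1550 (OE) (-0.12, SE 0.09, adjusted p = 0.608), and RPF values of 195.2 and 198.0 (EV) against 214.6 and 207.4 (OE). Abce1, the ATPase that splits ribosomes for the next round, showed RPF values of 162.2 and 167.9 (EV) against 175.6 and 167.0 (OE).

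Regulators of initiation outside the members were read beside them: the eIF2 kinases and phosphatases, mTORC1 and its kinases, and other partners of eIF4 and the scanning ribosome. Of 45 such genes 42 were in the table. With limma 0 of them passed for mRNA, RPF or TE, with smallest adjusted p-values of 0.12, 0.155 and 0.899. At an unadjusted p under 0.05 there were 6, 4 and 2, beside 13.4%, 10.2% and 5.46% of all genes, so the counts lay near the shares over the table. For mRNA and TE edgeR, limma voom and DESeq2 also called 0, and for RPF they called 1 (3.23% of all genes), 2 (3.43% of all genes) and 0. Their median RPF difference was 0.06.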

How the data were processed

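Per the submitters' processing notes, the authors used Bowtie and build mm10. Which counting program they used, and how it treated strand and multiply matching reads, is not given in the sources used here. Deposited by the authors was a table with 1 signal value (size-factor-normalized reads) per gene and library, and the authors' log2 fold change and unadjusted p-value of TE. Of its 9309 lines 2 are blank, and 9306 identifiers matched the GENCODE annotation of mm10, which gave symbols and 1-based coordinates. Whole reads were recovered for 100% of values (tolerance 1e-06), and no listed gene is without reads in any library, so genes that lacked them somewhere were not analysed here.

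The log2(value + 1) of all 9307 genes in all 8 libraries entered a limma model with a mean-variance trend and no block (limma 3.58.1, R 4.3.3). A minimum mean of 1 removed 0 genes. Because of the added 1, fold changes on this log2 scale understate those of low genes. P-values are two-sided, adjusted by Benjamini-Hochberg over all genes, with a threshold of 0.05. Alternatives were edgeR 4.0.16 (quasi-likelihood), DESeq2 1.42.0 and limma voom on the recovered reads, TMM scaling, pseudocounts of 0.5 and 5, a minimum mean of 10, no filter, the compared libraries alone, a replicate block, and leaving out each library. The limma, edgeR, limma voom and DESeq2 tests of RPF were tested on simulated data. SE is the standard error from limma. For each member the annotated transcript with the longest coding sequence was used, and the longest of these if tied. Unique words are 28-base subsequences of its coding sequence found in no transcript of another annotated gene. Promoter sequence came from RefSeq.

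Named by rule were members past the threshold, the 3 highest and 3 lowest per contrast, and the extremes of RPF over input in eIF2, eIF2B, eIF3 and eIF4. Other members were named for their role or after their values were seen. The members and lists were chosen with earlier results of these data known.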

Additional observations from a re-analysis of the deposited data

How the results depend on the processing

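The count of members past the threshold was 1 for mRNA. It was 0 with DESeq2, 2 with a pseudocount of 5 (Eif4a2 and Eif4g3) and 0 to 2 when 1 library was left out. For RPF it was 0, against 3 with edgeR, 3 with limma voom, 2 with the RPF libraries alone (Eif3f and Eif6), 1 with a pseudocount of 5, and 0 to 1 without 1 library. For RPF over input in EV it was 30, and 19 to 30 without 1 library, with 19 without the first EV RPF library. DESeq2, which gave 2 members no adjusted p there and 12 for RPF, called 20. For TE it was 0 throughout. With the replicate block the RPF count was 1. The remaining settings kept these counts within 1.5 times.

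Same-numbered libraries did not deviate together (correlations of -0.0137 to 0.0274). Outside the OE RPF group the spread between replicates was near counting error (chi-square per degree of freedom of 1.07 to 1.20). The correlations could thus lie near 0 with or without pairing, and they cannot decide if the numbers mark pairs. The main model does not pair them. With the replicate block the counts were 1 for mRNA, 1 for RPF (Eif6, adjusted p = 0.0432), 0 for TE and 26 for RPF over input.

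Signs turned for values that had not passed. Leaving out 1 library at a time, Eif5a2 ranged from -0.36 to 1.33 for mRNA (-0.36 without the first EV and -0.16 without the first OE input library), from -0.60 to 0.012 for RPF and from -1.63 to 0.062 for TE. Eif1b ranged from -1.04 to 0.0018 for TE, and Eif2a from -0.048 to 0.21 for RPF over input. The cause was not tested. Over all genes, calls by limma, edgeR, limma voom and DESeq2 numbered 140, 57, 49 and 15 for mRNA, and 89, 301, 319 and 25 for RPF. A median gene had 15 to 38 reads per library, and Eif1b, Eif5a2 and Eif3j1 had fewer in at least 1 kind of library.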

Other observations

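Among the 42 regulators, 4 had an RPF difference with an unadjusted p under 0.05, a count near the 10.2% of all genes with one. A pair of them is given here, chosen after their values were seen, and neither passed with limma. Which regulators edgeR and limma voom called for RPF is not given here. Mknk2, a kinase that phosphorylates eIF4E, had RPF values of 35.6 and 34.6 (EV) against 17.6 and 23.4 (OE) (log2 difference -0.76, SE 0.24, limma adjusted p = 0.155). Its input values were 70.6 and 67.5 (EV) against 41.8 and 55.9 (OE), so both OE libraries were lower in each kind of library. Pabpc4, a relative of Pabpc1, had RPF values of 1.32 and 5.27 (EV) against 8.23 and 7.18 (OE) (1.19, SE 0.41, adjusted p = 0.219), at input values of 33.4 to 54.8.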
